A study of Mus musculus with 12 samples.

Results

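The 10 genes followed here act in polyamine metabolism and were measured in undifferentiated spermatogonia of control and cryptorchid mouse testes. They are the antizyme inhibitors Azin1 and Azin2, ornithine decarboxylase Odc1, the antizymes Oaz1, Oaz2 and Oaz3, the synthases Srm and Sms, and the catabolic enzymes Sat1 and Paox. They were found by symbol among the 21859 genes of the expression table, and all 10 passed the filter on low values that left 16932 genes to be tested. Azin2 was chosen by its values in this same contrast, since every cryptorchid library lay below every control library, and its levels are therefore given as a description without a test. The other 9 genes were taken because they act around AZIN2 in the pathway.

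The study asked how gene expression and histone marks in spermatogonial stem cells respond to cryptorchidism. Male GFRa1-EGFP mice, 8 to 10 weeks old, in which EGFP follows Gfra1, had the left testis fixed to the abdominal wall by surgery, and the right testis of the same animals stayed in the scrotum as control. On day 10 after surgery GFRa1+/KIT- cells were sorted from both kinds of testis, and RNA of about 200 cells was made into Smart-seq2 libraries, 5 from control and 7 from cryptorchid testes. The labels give the genotype of the control libraries as WT and of the other libraries as Cryptorchid. By the methods of the study, both groups carried the same reporter and came from operated animals, which the sources do not give library by library. The sources do not say which control and cryptorchid libraries came from 1 animal, and the p-values measure only the spread between libraries. The collagenase step took 9 min for all testes. It was run at 32°C (control) or 37°C (cryptorchid), and the effects of this temperature and of the surgery cannot be told apart.

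Putrescine, spermidine and spermine are small cationic molecules that growing and differentiating cells need. Ornithine decarboxylase makes putrescine, and antizymes bind the enzyme and also restrain polyamine uptake. The antizyme OAZ1 sends the enzyme to the proteasome without ubiquitin. Antizyme inhibitors resemble ornithine decarboxylase without its activity and bind antizyme in its place, which frees the enzyme. In the testis, AZIN2 and the antizyme OAZ3 are known from haploid germ cells, the spermatids, whereas AZIN1, OAZ1 and OAZ2 are found in most tissues.

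Antizyme mRNAs are decoded with a programmed +1 frameshift, so that polyamines promote the synthesis of their own regulator. The 3 mouse sites are printed here because they are the shared feature that sets the antizymes apart from the other genes. The windows are of equal length and were read from GENCODE vM21 transcripts on GRCm38. Capitals mark TCCTGA, in which the ribosome passes over the T of the TGA stop codon.
Oaz1: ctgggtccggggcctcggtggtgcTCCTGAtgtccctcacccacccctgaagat
Oaz2: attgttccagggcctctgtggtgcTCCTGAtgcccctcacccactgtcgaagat
Oaz3: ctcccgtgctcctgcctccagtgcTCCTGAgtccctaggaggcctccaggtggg

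The Oaz1 window lies at chr10:80828268-80828321 on the plus strand, the Oaz2 window at chr9:65686245-65686298 on the plus strand and the Oaz3 window at chr3:94436008-94436061 on the minus strand. All are exonic, and the annotated coding models leave out 1 base, at 80828295, 65686272 and 94436034. The Oaz1 and Oaz2 windows were identical at 44 of 54 bases (81.5%). The Oaz3 window matched each of the others at 20 of 54 bases, and the 6 marked bases were the same in all 3.

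Between 3306771 and 24345368 reads per library fell on genes, with a median of 7603202 in control and 4611830 in cryptorchid libraries. The libraries were taken as 2 sets by replicate number, a split that no label names as a batch. Among genes counted at 1 to 20 reads, even counts made up 53.2% to 60.8% in the libraries numbered 1 to 3, and 48.2% to 50.5% in those numbered 4 and above. Differences are therefore also given within each set. All 10 markers of undifferentiated spermatogonia had reads, with a summed level of 1096 to 1673 RPM (read counts scaled to the total of the library) in control and 1254 to 1963 RPM in cryptorchid libraries. Markers of spermatids (13 genes) were also present, at 648 to 3473 RPM in control and 29.8 to 2295 RPM in cryptorchid libraries. In control libraries they summed to 648 to 1406 RPM in replicates 1 to 3 and to 3023 to 3473 RPM in replicates 4 and above. In cryptorchid libraries these sums were 29.8 to 441 and 160 to 2295 RPM. All 13 had a lower mean in cryptorchid libraries, and 6 were called lower at 2-fold and an unadjusted p of 0.05, against 2.36% of all genes. By the mean over all 12 libraries the most abundant were the protamines Prm2, at 9.32 log2 RPM in control and 5.59 in cryptorchid libraries, and Prm1, at 7.61 and 5.20, and none of the 13 was at 0 reads in every library.

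Azin2 showed a lower level in cryptorchid spermatogonia, 7.52-fold below control by mean log2 RPM. Its level in control replicates 1 to 5 was 4.97, 4.51, 5.01, 6.05 and 7.15 log2 RPM. In cryptorchid replicates 1 to 7 it was 2.43, 1.04, 2.02, 3.98, 2.69, 2.90 and 3.33 log2 RPM. The groups did not overlap, with control replicate 5 as the highest and cryptorchid replicate 2 as the lowest library, and the highest cryptorchid value belonged to replicate 4.

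Mean Azin2 was 5.54 ± 1.06 log2 RPM in control (SD, n = 5) and 2.63 ± 0.94 log2 RPM in cryptorchid libraries (SD, n = 7), so that the log2 difference was -2.91 (SE 0.54). In linear units the means were 58.8 and 7.32 RPM. The values rested on 328 to 763 reads per control library and 22 to 120 reads per cryptorchid library, numbers whose error covers counting only. Non-overlap with all cryptorchid libraries below was found for 48 of the tested genes, or 0.283%, and nothing is read from it here because it chose the gene. The difference was -3.0 log2 among replicates 1 to 3 and -3.37 among replicates 4 and above. In bulk samples such as these, fewer cells of a type and less RNA per cell cannot be told apart. Azin2 is on chr4:128930233-128962442 (minus strand, GRCm38).

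**Figure D1:**
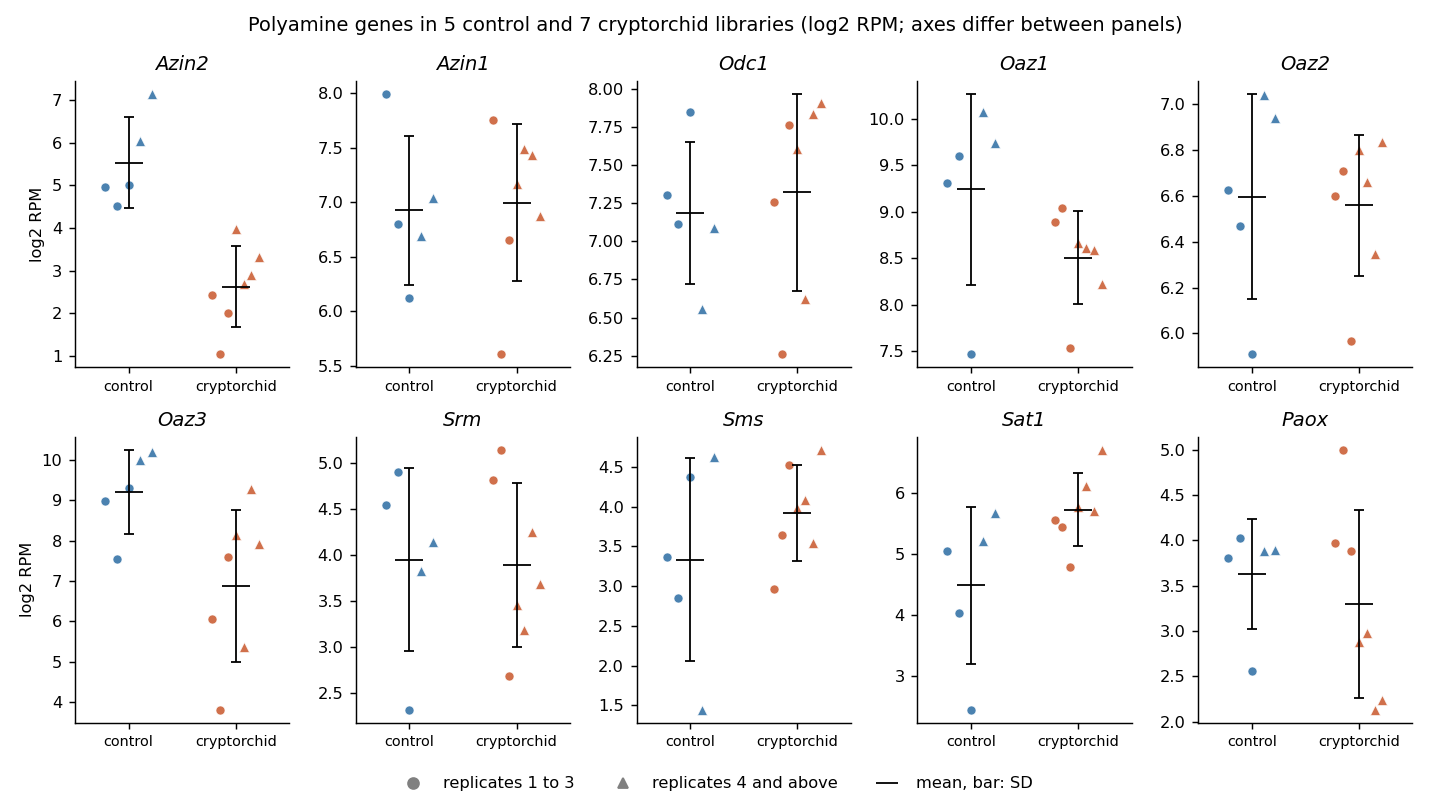
Log2 RPM of each of the 10 polyamine genes in 5 control (blue) and 7 cryptorchid (orange) libraries, with circles for replicates 1 to 3, triangles for replicates 4 and above, and black bars for the mean and SD. Azin2 is the gene whose groups do not overlap, between 4.51 and 7.15 in control and between 1.04 and 3.98 in cryptorchid libraries.

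Azin1, the paralog and the more widely expressed antizyme inhibitor, located on chr15:38487427-38519266, gave no such separation. In control replicates 1 to 5 it stood at 7.99, 6.80, 6.12, 6.69 and 7.04 log2 RPM, and in cryptorchid libraries it ranged from 5.61 to 7.75 with a median of 7.17 log2 RPM. Of the 7 cryptorchid libraries, 6 fell inside the control range. The difference of means was 0.07 log2 with a standard error of 0.37, and its adjusted p was 0.965 (limma, Benjamini-Hochberg over all genes tested). It was -0.30 among replicates 1 to 3 and 0.38 among replicates 4 and above.

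Set against each other within a library, Azin1 exceeded Azin2 by -0.11 to 3.02 log2 RPM in control libraries, with a median of 1.11. In cryptorchid libraries the gap was 3.19 to 5.33 log2 RPM, with a median of 4.56. In control replicate 5 the RPM values of the inhibitors were nearly equal, whereas Azin1 was far above Azin2 in every cryptorchid library. These gaps do not allow for exon length, which is 5031 bases for Azin1 and 2781 for Azin2. Per kilobase of exon, Azin2 exceeded Azin1 in control replicate 4 (23.8 against 20.5 RPM per kb) and control replicate 5 (51.0 against 26.1). Azin1 exceeded Azin2 per kilobase in the other control libraries and in every cryptorchid library. Azin2 had chosen this contrast, and the gap is a description.

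Odc1, the target of the antizymes and the enzyme that makes putrescine, is on chr12:17544794-17551505 and had 337 to 3978 reads in each library. Its level in control replicates 1 to 5 was 7.31, 7.11, 7.85, 6.56 and 7.09 log2 RPM, and the cryptorchid libraries ranged from 6.26 to 7.90 with a median of 7.60 log2 RPM. The groups overlapped almost entirely, with 1 cryptorchid library above the highest control and 1 below the lowest. The difference was 0.14 log2 with a standard error of 0.32 (adjusted p = 0.919, limma). It was -0.33 among replicates 1 to 3 and 0.67 among replicates 4 and above, and neither passed the test.

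Among the antizymes, Oaz3 was lower in cryptorchid libraries, with a 5.0-fold lower mean. Oaz3 encodes the antizyme of spermatids and lies on chr3:94432414-94443915. In control replicates 1 to 5 its level was 8.97, 7.55, 9.30, 9.98 and 10.20 log2 RPM. In cryptorchid replicates 1 to 7 it was 6.05, 3.82, 7.59, 8.14, 5.36, 9.28 and 7.92 log2 RPM. The groups overlapped through control replicate 2, which was low for its group, and cryptorchid replicate 6, which was high, and 3 of 7 cryptorchid libraries were below every control library.

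The Oaz3 means were 9.20 ± 1.05 log2 RPM in control (SD, n = 5) and 6.88 ± 1.88 log2 RPM in cryptorchid libraries (SD, n = 7). The difference of -2.32 log2 had a standard error of 0.73 and an unadjusted p of 0.00538 by limma, which met the call rule of 2-fold and p under 0.05, while its adjusted p was 0.315. Of all genes tested 5.92% were called by this rule, 2.36% lower and 3.56% higher in cryptorchid libraries. The Oaz3 difference was -2.79 among replicates 1 to 3 and -2.42 among replicates 4 and above.

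Oaz3 and the spermatid markers had nearly the same order over the libraries. The log2 RPM of Oaz3 minus that of the summed markers was -1.79 to -1.03 in control and -1.97 to -1.08 in cryptorchid libraries. From the highest to the lowest cryptorchid library, both had the order 6, 4, 7 and 3, differed only in whether replicate 1 or 5 came next, and ended with replicate 2. The mean gap was -1.49 ± 0.28 in control and -1.53 ± 0.38 in cryptorchid libraries (SD, n = 5 and 7). The level of Oaz3 relative to these markers thus differed between the groups by less than the spread between libraries, and the part of the markers in the Oaz3 result was not tested.

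The gap between Azin2 and the same markers varied more among cryptorchid libraries, with an SD of 1.5 against 0.38 for Oaz3. The Azin2 log2 RPM minus that of the summed markers was -5.51 to -4.61 in control and -8.26 to -3.86 in cryptorchid libraries. The widest gap was in cryptorchid replicate 6. There the markers summed to 2295 RPM, within the control range, and Oaz3 reached 9.28 log2 RPM, also within the control range, while Azin2 was at 2.90 log2 RPM and below every control library. With this library left out, the Azin2 difference was -2.96 and the Oaz3 difference -2.72. Single markers differed between the groups by -3.77 (Tssk6) to -0.55 log2 (Acrv1), a span that holds the Azin2 difference. The sum therefore does not stand for each marker, and the part of the spermatid markers in the Azin2 level was not tested.

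**Figure D2:**
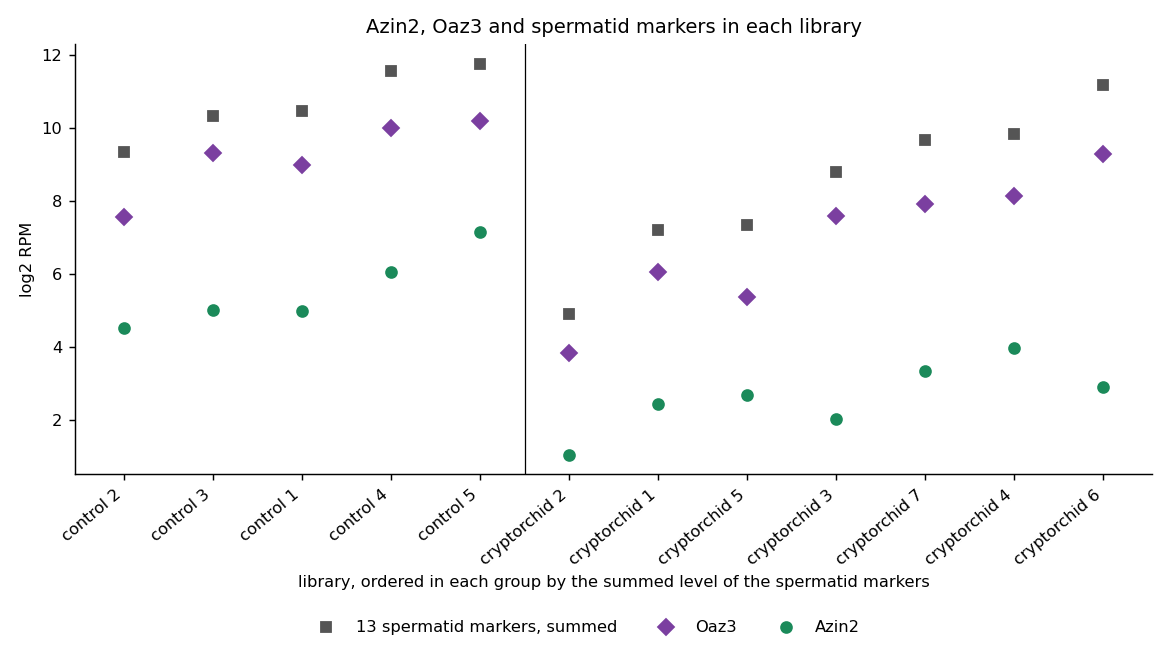
Log2 RPM of Azin2 (green), Oaz3 (purple) and the sum of 13 spermatid markers (grey) in each library, ordered within each group by the marker sum. Oaz3 minus the marker sum stays between -1.97 and -1.03 in all 12 libraries. Azin2 in cryptorchid replicate 6 stands at 2.90, with the marker sum of this library within the control range. The figure does not show each marker by itself.

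Oaz3 shares 340 exon bases (28.0% of its exons) with Tdrkh and 157 bases (12.9%) with Mrpl9, both on the other strand. The counting strand is not stated, and from the deposited values reads in these stretches cannot be assigned to 1 of the genes. Mean Tdrkh was 8.15 log2 RPM in control and 7.30 in cryptorchid libraries, and mean Mrpl9 was 5.37 and 5.10. Oaz3 minus Tdrkh was 0.21 to 1.92 log2 in control libraries. It was -1.35, -2.50 and -1.51 in cryptorchid replicates 1, 2 and 5, whose Oaz3 lay below every control library. In the other cryptorchid libraries it was 0.07 to 1.32. The part of shared reads in the Oaz3 result was not tested.

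Oaz1, the main antizyme of most cells, (chr10:80826656-80829290), had the highest mean log2 RPM of the 10 genes in both groups. It stood at 9.31, 9.60, 7.47, 10.07 and 9.74 log2 RPM in control replicates 1 to 5. In cryptorchid replicates 1 to 7 the level was 8.89, 9.04, 7.54, 8.66, 8.61, 8.58 and 8.22 log2 RPM. Of the 5 control libraries, 4 lay above every cryptorchid library, and control replicate 3 lay below all of them.

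The Oaz1 difference of -0.73 log2 (SE 0.40) did not pass the test, with an unadjusted p of 0.0842 and an adjusted p of 0.591 (limma). It was -0.31 among replicates 1 to 3 and -1.39 among replicates 4 and above. Without control replicate 3 the difference was -1.18 with an unadjusted p of 0.00105 (limma), which met the call rule. The replicates numbered 3 were the lowest Oaz1 library of each group, and without both of them the difference was -1.01.

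Oaz2, an antizyme of lower abundance, on chr9:65668001-65690300, had the smallest SD of the 3 in each group, 0.45 log2 in control and 0.31 in cryptorchid libraries. It stood at 6.63, 6.47, 5.91, 7.04 and 6.94 log2 RPM in control replicates 1 to 5 and ranged from 5.97 to 6.83 with a median of 6.66 log2 RPM in cryptorchid libraries. All 7 cryptorchid libraries were inside the control range, and the difference was -0.04 log2 with a standard error of 0.25 (adjusted p = 0.976, limma). Within the sets it was 0.090 for replicates 1 to 3 and -0.33 for replicates 4 and above. GENCODE also lists the pseudogenes Oaz1-ps and Oaz2-ps and, for the synthase Sms, Sms-ps. Reads shared with such copies could make these values uncertain and were not counted here.

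The aminopropyl synthases extend the polyamine chain, Srm (chr4:148591503-148594993) from putrescine to spermidine and Sms (chrX:157443855-157492287) from spermidine to spermine. Srm was at 4.55, 4.91, 2.32, 3.83 and 4.15 log2 RPM in control replicates 1 to 5 and at 2.68 to 5.15, with a median of 3.68, in cryptorchid libraries. Its lowest library in each group was again replicate 3, and the difference was -0.06 log2 with a standard error of 0.51 (adjusted p = 0.981, limma). Within the sets the Srm difference was 0.29 for replicates 1 to 3 and -0.34 for replicates 4 and above. Sms was at 3.37, 2.85, 4.37, 1.45 and 4.62 log2 RPM in control and at 2.96 to 4.72, with a median of 3.98, in cryptorchid libraries. Its difference was 0.59 log2 with a standard error of 0.52 (adjusted p = 0.756, limma), and the lowest value, in control replicate 4, rested on 15 reads. Without that library the Sms difference was 0.12, and without control replicate 5 it was 0.91. It was 0.18 for replicates 1 to 3 and 1.05 for replicates 4 and above.

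Sat1, the acetyltransferase that starts the back-conversion and export of spermidine and spermine, was the member called higher in cryptorchid libraries, 2.36-fold by mean log2 RPM. The gene is on chrX:155213132-155216449. In control replicates 1 to 5 its level was 5.05, 4.04, 2.46, 5.21 and 5.66 log2 RPM. In cryptorchid replicates 1 to 7 it was 5.57, 5.44, 4.79, 5.77, 6.12, 5.70 and 6.71 log2 RPM. Of the 7 cryptorchid libraries, 4 were above every control library, and control replicates 2 and 3 were below every cryptorchid library.

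Mean Sat1 was 4.49 ± 1.28 log2 RPM in control (SD, n = 5) and 5.73 ± 0.59 in cryptorchid libraries (SD, n = 7). The difference was 1.24 log2 with a standard error of 0.47, an unadjusted p of 0.0163 and an adjusted p of 0.418 (limma). Without control replicate 3 it was 0.73 with an unadjusted p of 0.0610, which no longer met the call rule. It was 1.41 among replicates 1 to 3 and 0.63 among replicates 4 and above, and in neither set alone was Sat1 called.

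Paox, the peroxisomal oxidase that acts on the acetylated products of SAT1 (chr7:140115799-140137224), was at 3.80, 4.02, 2.56, 3.88 and 3.89 log2 RPM in control replicates 1 to 5. In cryptorchid replicates 1 to 7 it was 3.97, 5.0, 3.88, 2.88, 2.98, 2.14 and 2.24 log2 RPM. Replicates 4 and above of the cryptorchid group were the low ones. The difference was -0.33 log2 with a standard error of 0.52 (adjusted p = 0.877, limma), and it was 0.83 among replicates 1 to 3 and -1.33 among replicates 4 and above, opposite signs whose difference was not tested.

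Of the 9 members other than Azin2, 2 were called (Sat1 higher and Oaz3 lower), where 5.92% of all genes were, and 0 had an adjusted p under 0.05 (limma). Over all genes 2 of 16932, or 0.0118%, had such an adjusted p. An unadjusted p under 0.05 was found for the same 2 of the 9 members and for 1606 of all genes. The median difference of the 9 was -0.04 log2, against 0.10 over all genes tested. Among these 9, Oaz1, Oaz3, Sms and Sat1 had the same sign in both sets, and Azin1, Odc1, Oaz2, Srm and Paox did not. The sign of Azin2 was fixed by how it was chosen. The share of all genes with the same sign was not counted, and nothing is read from these signs.

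Per kilobase of exon, which allows levels to be compared between genes, the members spanned a wide range. In control libraries the median was 722.8 RPM per kb for Oaz1 and 520.6 for Oaz3, followed by 62.6 for Odc1, 48.6 for Oaz2, 28.1 for Sat1, 22.1 for Azin1, 13.2 for Srm, 11.6 for Azin2, 3.17 for Paox and 2.78 for Sms. Between neighbours in this order, the ranges were separate only from Oaz3 to Odc1 and from Azin2 to Paox.

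In cryptorchid libraries Oaz1 again led the order, at a median of 363 RPM per kb, before Oaz3 at 159 and Odc1 at 88.1. Azin2 stood at 2.32 RPM per kb, below Sms at 4.24 and next to Paox at 1.70. All neighbours in the order overlapped in this group, in which Oaz3 ranged from 11.7 to 513 RPM per kb. The antizyme mRNAs Oaz1 and Oaz3 thus had the highest medians in both groups.

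**Figure D3:**
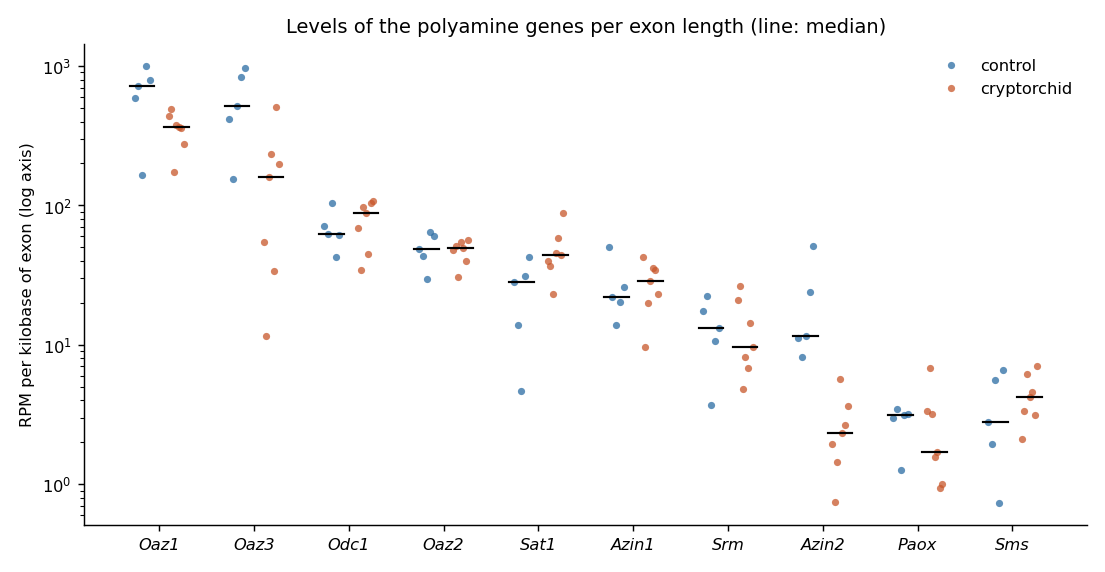
RPM per kilobase of exon (log axis) of each polyamine gene in control (blue) and cryptorchid (orange) libraries, with black lines for the medians. The median of Azin2 is 11.6 in control and 2.32 in cryptorchid libraries, and that of Oaz3 is 520.6 and 159.

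The genes most like Azin2 over the 12 libraries were named by the root mean square difference between centred log2 profiles, a description over libraries that share the group difference. The closest were Gm49661 at 0.47 log2, Zbp1 at 0.56, Bcl2l14 at 0.66, Osbp2 at 0.67 and Lrrc57 at 0.74. Gm49661 and Osbp2 shared the separation of the groups, whereas Zbp1, Bcl2l14 and Lrrc57 overlapped, and Zbp1 had no reads in at least 1 library. Among the members Oaz3 came closest to Azin2, at 1.07 and position 69, followed by Oaz1 at position 1014. The other members stood between positions 2898 and 13168, and Azin1 was at 1.72 and position 5348.

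A wider list of 29 genes around the pathway held 27 that passed the filter, of which 15 were higher and 12 lower in cryptorchid libraries. The 2 that did not pass were the oxidase Aoc1 and the transcription factor Myc. None of the 27 was called by limma (0 genes), 1 had an unadjusted p under 0.05 and 0 had an adjusted p under 0.05, and the median difference was 0.26 log2 against 0.10 over all genes. With limma's array weights 2 were called, and with voom on recovered reads 0. The gene with the small p was Dohh, the last enzyme of hypusine formation, at -0.88 log2 (SE 0.33, adjusted p = 0.404 by limma). Dohh was picked out after its values were seen.

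Within the roles, the most abundant gene of each stood as follows. Amd1, the decarboxylase that supplies the aminopropyl donor, differed by 0.79 log2 (SE 0.48, adjusted p = 0.627 by limma), and Mat2a, which makes S-adenosylmethionine, by 0.26 (SE 0.31). Smox, the spermine oxidase, differed by 0.70 (SE 0.42) and Eif5a, the translation factor that carries hypusine made from spermidine, by -0.30 (SE 0.37). Slc3a2, an amino acid transporter chain linked to polyamine transport, differed by -0.57 (SE 0.33) and Mycn, a transcription factor of the family that activates Odc1, by -0.30 (SE 0.60). None of these differences passed the test.

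**Figure D4:**
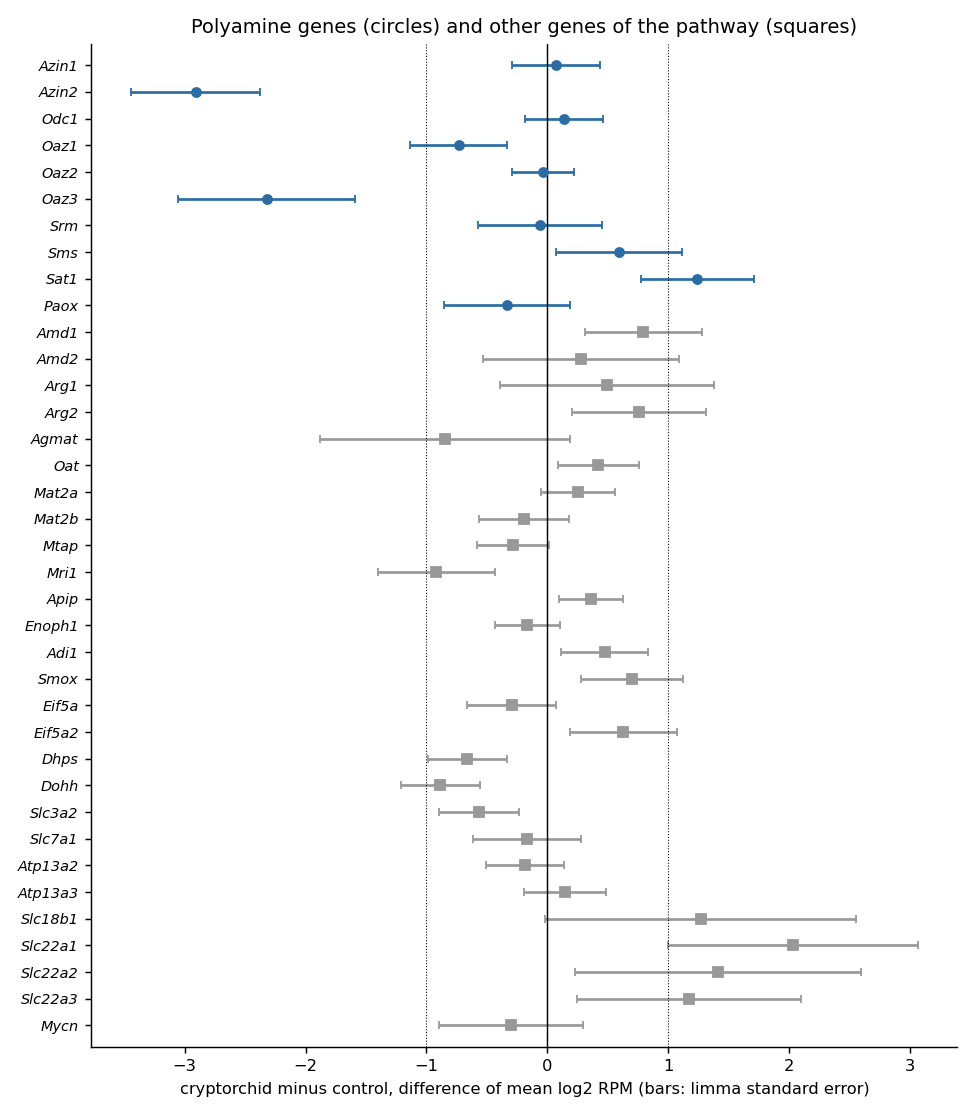
Difference of mean log2 RPM, cryptorchid minus control, with its limma standard error, for the 10 polyamine genes (blue circles) and 27 other genes of the pathway (grey squares), with dotted lines at a 2-fold difference. Azin2 at -2.91 and Oaz3 at -2.32 lie farthest to the left, and of the members Sat1 at 1.24 lies farthest to the right.

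Other marker sums that could bear on these values are given for the same libraries. Heat shock genes summed to 124 to 167 RPM in control and 196 to 363 RPM in cryptorchid libraries. These sums did not overlap, with 3 of 5 genes higher and 1, Hsph1, called higher. Only Hsph1 was itself above every control library in all cryptorchid libraries, with means of 6.29 and 7.49 log2 RPM in control and cryptorchid libraries. Of all genes tested, 94 had such a separation. The other heat shock genes overlapped, with Dnajb1 (0.27 log2) and Hspb1 (0.19) higher and Hspa1a (-1.02) and Hspa1b (-0.96) lower. Cold-inducible genes summed to 121 to 387 and 141 to 204 RPM, with both lower and 1 called. Sertoli cell markers were at 45.5 to 282 and 41.4 to 253 RPM, Leydig cell markers at 8.64 to 15.5 and 5.29 to 47.8 RPM with Cyp17a1 at 3 reads or fewer in every library, and spermatocyte markers at 775 to 2183 and 800 to 2457 RPM, and none of these was called by limma (1 spermatocyte gene had an unadjusted p under 0.05). Markers of differentiating spermatogonia summed to 99.3 to 175 and 114 to 298 RPM, with 2 of 4 higher and 1, Stra8, called higher (1.09 log2). Endothelial markers summed to 8.73 to 22.1 and 10.6 to 35.4 RPM, with 3 of 3 higher and 1, Cdh5, called higher (2.01 log2). Macrophage markers were at 2.25 to 22.1 and 7.62 to 27.2 RPM, lymphocyte markers at 1.11 to 4.90 and 0.857 to 15.9 RPM and peritubular myoid markers at 1.46 to 15.5 and 0.238 to 12.96 RPM, with 0 called by limma and 0 at an unadjusted p under 0.05. By set, Sertoli cell markers were at 41.4 to 81.45 RPM in libraries numbered 1 to 3 and at 133 to 282 RPM in those numbered 4 and above. Spermatocyte markers were at 775 to 1029 and 1125 to 2457 RPM in these sets. The sets thus differed in marker levels too. The part of all these markers in the results for the members was not tested.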

How the data were processed

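The authors deposited log2 RPM values per gene for 12 Smart-seq2 libraries (5 control, 7 cryptorchid), which had no molecular identifiers. They trimmed the reads, mapped them to mm10 and summed reads per protein-coding gene in SeqMonk. The submitters' processing notes name FastQC 0.11.8, Trim Galore 0.6.6 and HISAT2 2.1.0. Their text names edgeR on counts for differential expression. As the values are on a log2 scale, limma 3.58.1 in R 4.3.3 (lmFit, eBayes with trend) was used here. A gene was tested if the log2 of its mean RPM exceeded -1 (16932 genes). Calls needed a 2-fold difference and a two-sided unadjusted p under 0.05, and adjusted p-values are Benjamini-Hochberg over all of these genes.

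Reads were recovered from the steps of the values, with no reads taken as 0.9 reads, and all values under 1000 reads were whole within 0.02. Depth limits precision through these reads, and their error covers counting only. Columns were matched to samples by name, and 0 columns belonged to no sample. Gene positions, exon lengths and frameshift windows are from GENCODE vM21 on GRCm38, the build of mm10. The test was checked on simulated data, and Python 3.11.15 was used for summaries and plots.

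The members and gene lists were chosen with earlier results of these data known. Named are the 10 members, pathway genes that were called or else the most abundant of each role, and the 5 genes most like Azin2. The alternatives were median centring, quantile normalization, pseudocounts of 1 and 0.1, a common floor, and no filter or one at 2. Array weights and voom on recovered reads were also used. So were a block for the replicate number, a term for the 2 sets, each set alone, and each library left out. Leaving out both libraries numbered 3 was added after the data were seen.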

Additional observations from a re-analysis of the deposited data

Results flagged for a closer look

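In 20 groups (the 10 polyamine genes in control and in cryptorchid libraries) the highest and the lowest library were set against the rest, a comparison that chance flags in about 1 in 20 groups. It singled out 1 value, that of Paox in control replicate 3, which at 2.56 log2 RPM (60 reads) lay far below the other 4 control libraries, at 3.80 to 4.02. Without this library the Paox difference was -0.60 log2.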

How the results depend on the processing

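Azin2 lay between -3.37 and -2.51 log2 over 26 alternatives. Oaz3 was called under all 26 (-3.01 to -1.81), and Sat1 under 21. Sat1 failed with array weights (0.86), in each set alone, without control replicate 3 (0.73) and without both libraries numbered 3 (0.89). Oaz1 was called under 4, including array weights (-1.10, adjusted p = 0.0372 by limma). Over the alternatives the adjusted p ranged from 0.0372 to 1 for Oaz1, from 0.00154 to 1 for Oaz3 and from 0.0495 to 1 for Sat1. With replicates 1 to 3 alone 1 member was called, and leaving out a library gave 2 to 2, with Oaz1 in place of Sat1 without control replicate 3.

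Replicate numbers are shared by the groups but were not shown to pair the samples. Correlations of deviations were 0.35, 0.36, 0.41, 0.25 and 0.05, and 4 of 5 control libraries correlated best with their own number. With the replicate block 3 members had an adjusted p under 0.05 (limma): Oaz1 at -0.69 (adjusted p = 0.0472), Oaz3 at -3.01 (0.00154) and Sat1 at 1.05 (0.0495). With array weights it was 1 member. The block called 1678 genes, 949 of them with an adjusted p under 0.05, array weights 1585 (476 adjusted) and replicates 1 to 3 alone 632 (0 adjusted), against 1002 (2 adjusted). Leaving out 1 library gave 829 to 1248. Of the calls 60.2% were higher in cryptorchid libraries, against 45.5% with quantile normalization, 46.4% with the block and 47.7% with a set term.

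Of the pathway genes 0 were called, against 1 with no filter, 2 with array weights, 1 with the block, 2 in replicates 4 and above alone and 1 without both libraries numbered 3. Leaving out 1 library gave 0 to 2, with 1 without control replicate 1 and 2 without control replicate 3, cryptorchid replicate 2 or cryptorchid replicate 3. With an adjusted p there was 1 gene under array weights and 1 under the block.

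Signs turned only for members whose difference did not pass the test. Azin1 was -0.021 with voom, -0.30 in replicates 1 to 3, -0.075 without both libraries numbered 3 and -0.13 to 0.34 with 1 library left out. Odc1 was -0.081 with the block, -0.33 in replicates 1 to 3 (0.67 in the others) and -0.018 to 0.32 with 1 library left out. Oaz2 was 0.090 and Srm 0.29 in replicates 1 to 3, and with 1 library left out they were -0.21 to 0.074 and -0.47 to 0.18. Paox was 0.11 with the block and 0.83 in replicates 1 to 3. The causes were not tested.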
